A study of Homo sapiens with 5 samples.

Results

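The 10 genes described here encode parts of the cytosolic and mitochondrial protein-folding machinery, and they were followed in ribosome profiles of human HAP1 cells with and without METTL18. They are the HSP90 genes HSP90AA1 and HSP90AB1, the HSP90 co-chaperones AHSA1, FKBP4 and STIP1, the constitutive HSP70 gene HSPA8, its HSP110 partners HSPA4 and HSPH1, and the mitochondrial chaperonin genes HSPD1 (HSP60) and HSPE1 (HSP10). They were chosen by role and symbol with earlier results of these data known, taking the row of most counts for a symbol, and all 10 were found among the 14042 genes of the table. The libraries form 2 groups, METTL18 knockout (n = 3) and wild type (n = 2), all from HAP1, an established near-haploid line that descends from a chronic myeloid leukaemia. METTL18 encodes a methyltransferase that modifies a histidine of the ribosomal protein RPL3. The labels name no treatment, no number of clones and no kind of METTL18 mutation. They also do not tie libraries of a group to separate cultures, so a p-value covers spread between libraries that may be technical alone.

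A ribosome footprint is a piece of mRNA that a translating ribosome shields from nuclease. A gene's footprint count depends on how much of its mRNA is present and on how many ribosomes each copy carries, and these were not separated here. In the cytosol, HSP70 binds unfolded chains early and HSP110 proteins release its ADP so that the next cycle can begin. HSP90 then takes partly folded clients, such as kinases and steroid receptors, and co-chaperones set the pace of its ATP cycle. In mitochondria, HSP60 encloses a chain in a barrel and HSP10 is the lid. Many of these genes are transcribed in unstressed cells and are raised further by heat shock factor HSF1.

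The knockout libraries held 16339574, 17629199 and 16921863 counts, against 5302160 and 4887380 in the wild-type libraries, so that mean depth was 3.33-fold higher in the knockout. With the knockout libraries thinned to wild-type depth, all 10 chaperone genes were still called higher. METTL18 itself had 33, 32 and 34 counts in the knockout libraries against 33 and 32 in the wild-type libraries. Scaled for depth this was 2.10 ± 0.117 CPM in the knockout (SD, n = 3) and 5.70 ± 0.210 CPM in the wild type (SD, n = 2), so the knockout was lower by a log2 fold change of -1.44 (SE 0.247, edgeR quasi-likelihood adjusted p = 2.0e-06). CPM is a gene's counts per 1000000 counts of its library, scaled for composition. Of 8 blood cell markers, 3 were in the table, with at most 4 counts in a library.

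All 10 chaperone genes were higher in the knockout, and in each of them every knockout library stood above both wild-type libraries in CPM, although HSPA4 and STIP1 were lower in the knockout as TPM, a scale per coding base without composition factors. The median log2 fold change was 0.91, and the values ran between 0.28 for HSPA4 and STIP1 and 1.54 for HSPE1. Change was common in this contrast: of 11335 genes tested, 74.4% were called in either direction at an adjusted p under 0.05, 37.8% as higher and 36.6% as lower, and the median of all genes was 0.02. Library values of the groups stood apart, with the knockout higher, for 42.5% of genes. Among the 817 genes at least as abundant as AHSA1, the least abundant of the 10, 66.1% were called higher and the median was 0.36. The count of 10 in 10 is therefore to be read against that share. When a fold above 1.5 was required, 8 of the 10 stayed called as higher, against 17.7% of all genes. Unlike the 66.1%, that share was not taken among genes of like abundance.

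**Figure D1:**
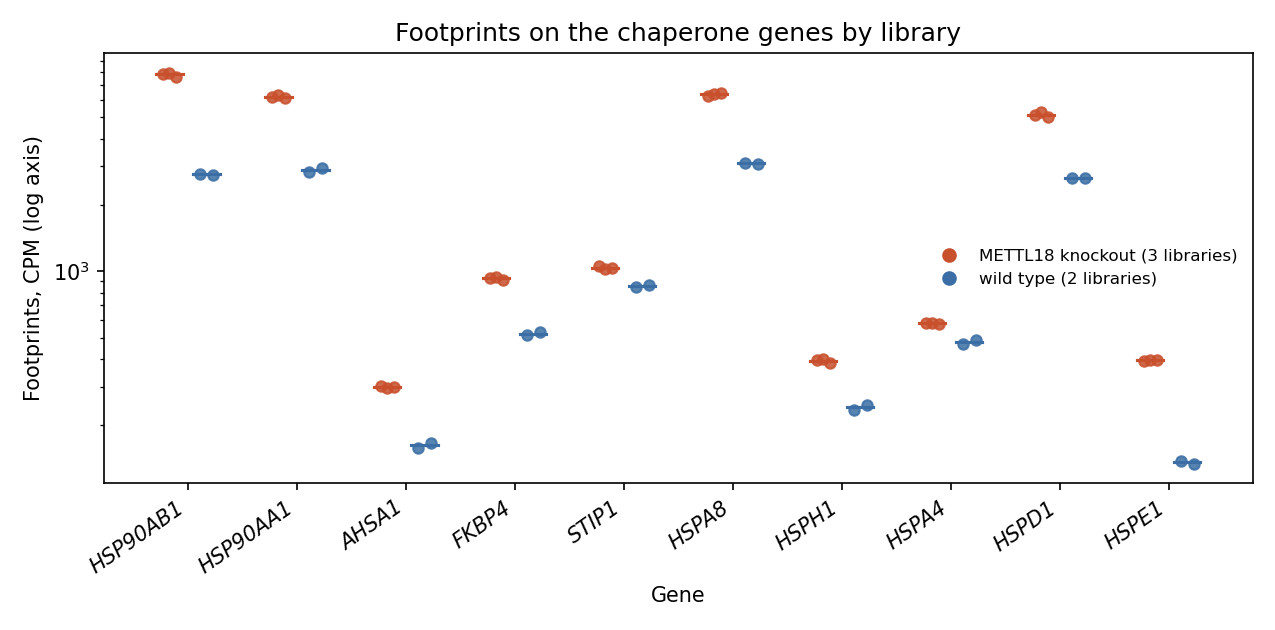
Footprints on the 10 chaperone genes in CPM (log axis), with 1 point per library, METTL18 knockout to the left of wild type, and a line at the mean of each group. Every knockout point lies above both wild-type points of its gene, by the widest margins for HSPE1 and HSP90AB1 and the narrowest for HSPA4 and STIP1, which are lower in the knockout as TPM.

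The scaling matters for the smallest of these differences. Scaled by total counts alone, the median of all genes moved to -0.255, and the table gave 2982 genes as higher and 5597 as lower, against 4288 and 4143 with composition factors. HSPA4 (log2 fold change 0.0048, adjusted p = 0.919) and STIP1 (0.0053, adjusted p = 0.903, both edgeR quasi-likelihood test) were then not called. The other 8 stayed called, between 0.43 for HSPH1 and 1.27 for HSPE1. Of 160 values for the 10 genes over 16 alternative settings, 156 kept their call, and the 4 lost were HSPA4 and STIP1 under total counts and under the required fold of 1.5.

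The heat shock element, the site HSF1 binds, consists of inverted repeats of the letters GAA. The stretches that hold it are printed as sequence only, and a role of HSF1 in the changes described here was not tested. A search for TTCNNGAANNTTC and its reverse complement GAANNTTCNNGAA, which covers both strands, was run over RefSeq windows of 300 bases, 250 before and 50 after each gene's start (GRCh38.p14). It found the motif in 166 of 27305 genes (0.608%) and in 4 of the 9 chaperone genes with a window, namely HSP90AA1, HSP90AB1, HSPA8 and HSPD1. FKBP4 was not matched. The stretches, 5′ to 3′ on the gene's strand, follow with the motif in capitals.
HSP90AA1, chr14:102087112-102087141, minus strand: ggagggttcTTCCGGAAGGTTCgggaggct
HSP90AB1, chr6:44247693-44247865, plus strand: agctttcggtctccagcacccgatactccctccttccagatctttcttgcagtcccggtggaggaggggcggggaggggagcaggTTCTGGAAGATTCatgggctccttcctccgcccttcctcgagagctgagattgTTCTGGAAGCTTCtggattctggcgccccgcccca
HSPA8, farther stretch, chr11:123062353-123062386, minus strand: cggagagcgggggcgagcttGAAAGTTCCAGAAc
HSPA8, nearer stretch, chr11:123062171-123062200, minus strand: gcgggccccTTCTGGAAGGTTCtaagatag
HSPD1, chr2:197500062-197500090, minus strand: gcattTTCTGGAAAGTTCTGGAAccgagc

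Positions are counted from the RefSeq start of each window, which need not be that of the transcript in the table. In HSP90AA1 the motif lies 88 to 76 bases before a start 147 bases downstream of the table's transcript start, and within an exon of that transcript. HSP90AB1 has 2 copies, at 165 to 153 and at 112 to 100 bases, before a start 1777 bases downstream of that of the table's transcript. HSPA8 has 2 copies as well, at 230 to 218 and at 55 to 43 bases before a start 199 bases downstream of the table's, and the nearer copy lies within an exon of that transcript. In HSPD1 overlapping matches fill 18 bases, 245 to 228 before a start 434 bases downstream of the table's, within an exon of that transcript and inside the stretch where the HSPD1 and HSPE1 transcripts overlap head to head. The 4 genes with the motif had a median log2 fold change of 1.07, against 0.70 for the 5 without it, given as a description with no test. HSPE1 (1.54) counts as without it, although the HSPD1 motif lies where the 2 transcripts overlap. The window of HSPH1 ends before the start of the table's transcript, which is 461 bases downstream of the RefSeq start. The 4 genes with the motif were also the most abundant of the 10. Over the rest of the tested genes, 18 of 37 with the motif were higher (48.6%) and 10 were lower (27.0%). Without it, 38.3% of 8789 genes were higher and 36.1% were lower. A match says that these letters are in the window and nothing of binding.

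**Figure D2:**
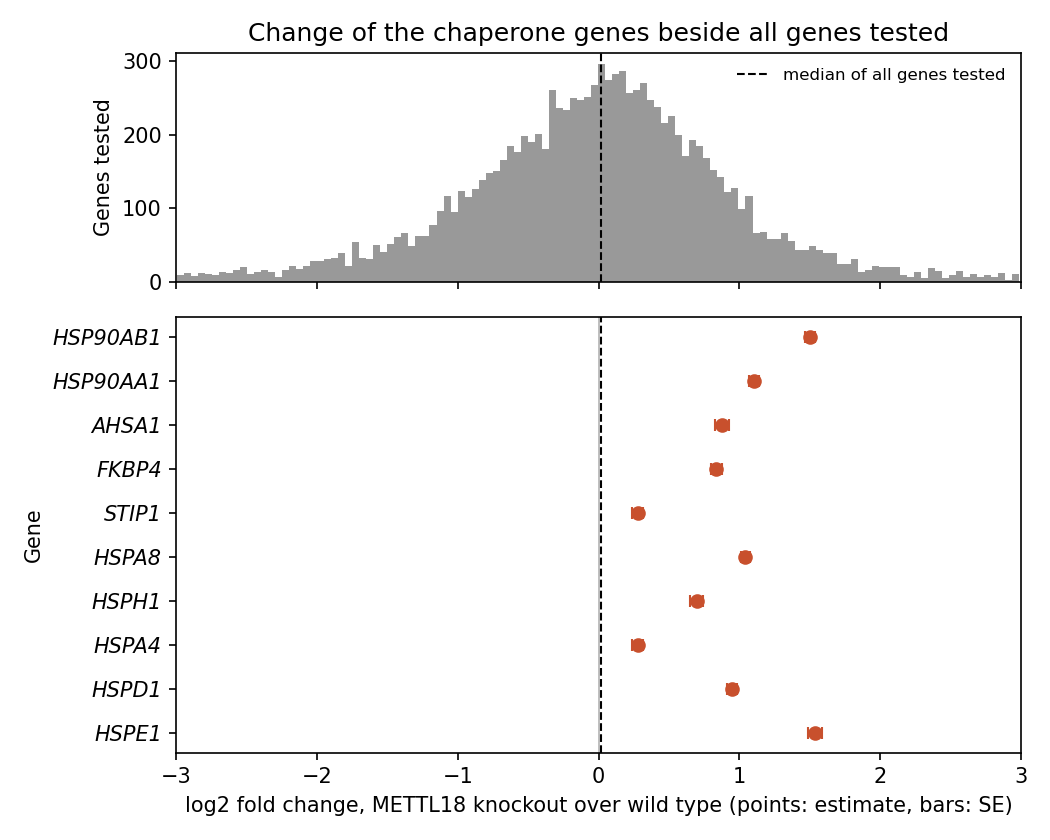
Top, number of tested genes by log2 fold change of METTL18 knockout over wild type, with 577 genes beyond 3 in either direction not drawn and a dashed line at the median. Bottom, the estimate and SE of each of the 10 chaperone genes on the same axis, all to the right of the median of 0.02. HSPA4 and STIP1 lie below 0.36, the median of genes at least as abundant as AHSA1, which is not drawn.

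HSP90AB1, the constitutive cytosolic HSP90, had 7837, 7976 and 7653 CPM in the knockout libraries, against 2771 and 2745 CPM in the wild-type libraries. No library of either group came near the other group. The means were 7822 ± 162 CPM in the knockout and 2758 ± 17.9 CPM in the wild type, with a log2 fold change of 1.504 (SE 0.0340, edgeR quasi-likelihood adjusted p = 1.92e-33). This change exceeded that of 92.9% of tested genes. HSP90AA1, its heat-inducible paralog, had 6163, 6298 and 6143 CPM in the knockout libraries, against 2829 and 2941 CPM in the wild-type libraries. The groups were again well apart, at 6201 ± 84.4 CPM in the knockout and 2885 ± 79.0 CPM in the wild type, with a log2 fold change of 1.10 (SE 0.0340, edgeR quasi-likelihood adjusted p = 1.01e-28). HSP90AB1 occupies chromosome 6, 44246166 to 44253888 on the plus strand of hg38, with 12 exons, and HSP90AA1 chromosome 14, 102080738 to 102087191 on the minus strand, with 11.

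The balance between the HSP90 paralogs differed too. HSP90AB1 took 56.0%, 55.9% and 55.5% of the counts of the pair in the knockout libraries, against 49.5% and 48.3% in the wild-type libraries. It held the larger share in each knockout library and the smaller in each wild-type library. The mean shares were 55.8% ± 0.266 in the knockout and 48.9% ± 0.846 in the wild type, 6.90 points apart. An exact two-sided permutation test over libraries gave p = 0.1, the smallest that 3 against 2 libraries allow, so the design cannot reach the threshold. Exact (Clopper-Pearson) 95% intervals were at most 0.557 points either side, for counting error only. That of wild type replicate 1 ran from 48.94% to 50.01%, so an even split lay within it. The coding sequences are 76.5% identical, and 37.1% of HSP90AA1's and 45.1% of HSP90AB1's 28-base windows occur in no other GENCODE gene. None of their windows is shared with another protein-coding gene, so the paralogs share none, and the genes that do share them are pseudogenes and processed transcripts of HSP90. The sources used here do not say how reads with several matches were counted.

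The HSP90 co-chaperones followed at lower levels. AHSA1, which stimulates the HSP90 ATPase, had 302, 295 and 298 CPM in the knockout libraries, against 158 and 166 CPM in the wild-type libraries, and FKBP4, an immunophilin that works with steroid receptors, had 936, 945 and 913 CPM in the knockout libraries, against 513 and 531 CPM in the wild-type libraries. In both genes the lowest knockout library was far above the highest wild-type library. For AHSA1 the log2 fold change was 0.88 (SE 0.0498, adjusted p = 1.84e-19) and for FKBP4 it was 0.84 (SE 0.0403, edgeR quasi-likelihood adjusted p = 7.51e-22). STIP1, the HOP adaptor that bridges HSP70 and HSP90, had 1055, 1023 and 1031 CPM in the knockout libraries, against 847 and 863 CPM in the wild-type libraries. Its groups did not overlap but lay close, with a log2 fold change of 0.28 (SE 0.0379, edgeR quasi-likelihood adjusted p = 1.94e-08). That was larger than the change of 62.7% of tested genes, but below the median of 0.36 among genes at least as abundant as AHSA1. AHSA1 is on chromosome 14, 77458030 to 77469474 with 9 exons, FKBP4 on chromosome 12, 2794953 to 2805423 with 10, and STIP1 on chromosome 11, 64186115 to 64204543 with 14, all on the plus strand of hg38.

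Among the HSP70 genes, HSPA8, the constitutive HSC70 that folds new chains, had 6213, 6397 and 6450 CPM in the knockout libraries, against 3093 and 3078 CPM in the wild-type libraries. All 3 knockout values lay far above both wild-type values. The means were 6353 ± 125 CPM in the knockout and 3086 ± 11.1 CPM in the wild type, with a log2 fold change of 1.04 (SE 0.0336, edgeR quasi-likelihood adjusted p = 5.09e-28). HSPH1, an HSP110 that exchanges nucleotide on HSP70, had 394, 398 and 383 CPM in the knockout libraries, against 235 and 248 CPM in the wild-type libraries. It rose by 0.70 on the log2 scale (SE 0.0466, edgeR quasi-likelihood adjusted p = 4.01e-17). HSPA4, another HSP110, had 581, 582 and 580 CPM in the knockout libraries, against 469 and 489 CPM in the wild-type libraries. Its log2 fold change was 0.28 (SE 0.0411, edgeR quasi-likelihood adjusted p = 1.16e-07). As for STIP1, that is below the median of 0.36 among genes at least as abundant as AHSA1.

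HSPH1 took 40.4%, 40.6% and 39.8% of the counts of HSPH1 plus HSPA4 in the knockout libraries, against 33.4% and 33.6% in the wild-type libraries. The means were 40.3% ± 0.446 in the knockout and 33.5% ± 0.171 in the wild type. HSPA4L is not part of this share. The groups did not overlap (exact permutation p = 0.1, the smallest possible), and counting intervals were at most 1.47 points either side. The coding sequences of HSPA4 and HSPH1 are 70.7% identical, and all their 28-base windows occur in no other GENCODE gene, so a read of that length matches only 1 of them. For HSPA8 the figure is 42.1%, with 13 pseudogenes among the genes that share its windows. HSPA8 lies on chromosome 11, 123057489 to 123062335 on the minus strand of hg38 with 9 exons, HSPA4 on chromosome 5, 133051962 to 133106449 on the plus strand with 19, and HSPH1 on chromosome 13, 31135049 to 31161927 on the minus strand with 18.

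The chaperonin of mitochondria rose in both its parts. HSPD1, the barrel, had 5119, 5268 and 5014 CPM in the knockout libraries, against 2658 and 2660 CPM in the wild-type libraries. HSPE1, the lid, had 392, 397 and 396 CPM in the knockout libraries, against 138 and 134 CPM in the wild-type libraries. The groups were far apart in both genes. For HSPD1 the log2 fold change was 0.95 (SE 0.0343, adjusted p = 2.85e-26) and for HSPE1 it was 1.54 (SE 0.05003, edgeR quasi-likelihood adjusted p = 6.7e-28), and the change of HSPE1 was larger than that of 93.2% of tested genes. HSPE1 took 7.12%, 7.01% and 7.31% of the counts of both in the knockout libraries, against 4.92% and 4.80% in the wild-type libraries, 2.29 points more on average (exact permutation p = 0.1, the smallest possible). The genes sit head to head on chromosome 2 of hg38, HSPD1 at 197486586 to 197500274 on the minus strand with 12 exons and HSPE1 at 197499994 to 197503457 on the plus strand with 4. Of HSPD1's 28-base windows 28.1% occur in no other GENCODE gene, and of HSPE1's 2.51%, with 16 and 19 pseudogenes sharing them. HSPE1 also shares 50.9% of its windows with the protein-coding readthrough HSPE1-MOB4, and only 49.1% occur in no other coding gene, where each of the other 9 has 100%. The row of HSPE1-MOB4 held at most 1 count in a library. How the counting placed reads that match several of these was not tested.

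**Figure D3:**
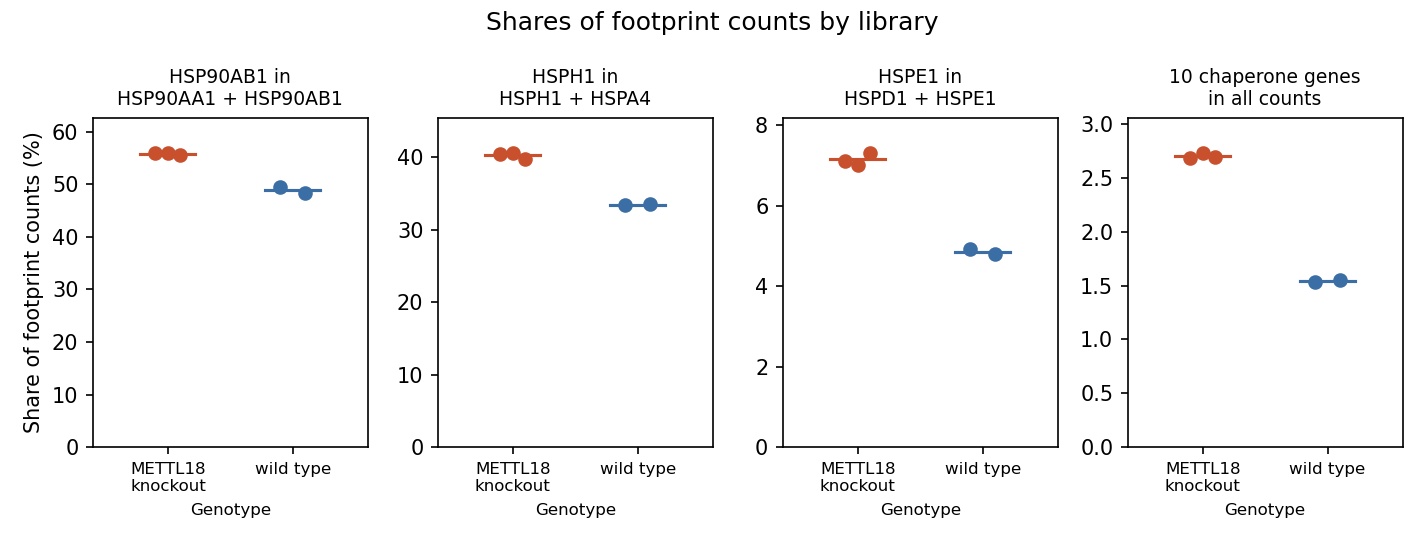
Share of footprint counts in percent by library, METTL18 knockout left of wild type, with a line at the mean. Panels show HSP90AB1 in HSP90AA1 plus HSP90AB1, HSPH1 in HSPH1 plus HSPA4, HSPE1 in HSPD1 plus HSPE1, and the 10 genes in all counts. In all 4 panels the 3 knockout libraries lie above the 2 wild-type libraries.

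Together the 10 genes took 2.69%, 2.73% and 2.69% of all counts in the knockout libraries, against 1.54% and 1.55% in the wild-type libraries. The difference of 1.16 points had an exact permutation p of 0.1, the smallest possible, and adjusted over the 4 shares tested each p stayed at 0.1. The share of the 10 genes is of total counts and uses no composition factors. It is thus on the total-count scale, where the median log2 fold change of all genes was -0.255. The other shares are within pairs of genes, where such factors cancel.

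Levels were compared between genes as TPM, counts per base of coding sequence (GENCODE 29) scaled to sum to 1000000 in each library, without composition factors. On this scale HSP90AB1 was first of the 10 in the knockout at 2921 ± 41.0 TPM and behind HSPA8, HSPD1 and HSP90AA1 in the wild type at 1408 ± 8.22 TPM. HSPA8 had 2660 ± 59.3 TPM in the knockout and 1765 ± 5.19 TPM in the wild type, HSPD1 had 2422 ± 44.2 TPM in the knockout and 1715 ± 1.82 TPM in the wild type, and HSP90AA1 had 2291 ± 18.4 TPM in the knockout and 1457 ± 40.8 TPM in the wild type. These 4 led the order in both groups. HSPE1, short at 306 coding bases, followed with 1048 ± 8.06 TPM in the knockout, against 492 ± 8.99 TPM in the wild type. FKBP4 had 549 ± 6.14 TPM in the knockout and 420 ± 10.5 TPM in the wild type. AHSA1 had 239 ± 3.57 TPM in the knockout and 177 ± 6.46 TPM in the wild type, and HSPH1, the lowest of the 10 in both groups, had 123 ± 1.72 TPM in the knockout and 104 ± 3.92 TPM in the wild type. STIP1 and HSPA4 went the other way on this scale, with 516 ± 9.70 TPM in the knockout and 582 ± 8.27 TPM in the wild type for STIP1, and 187 ± 0.904 TPM in the knockout and 211 ± 6.34 TPM in the wild type for HSPA4. No neighbours in the order overlapped in their library values, in either group.

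**Figure D4:**
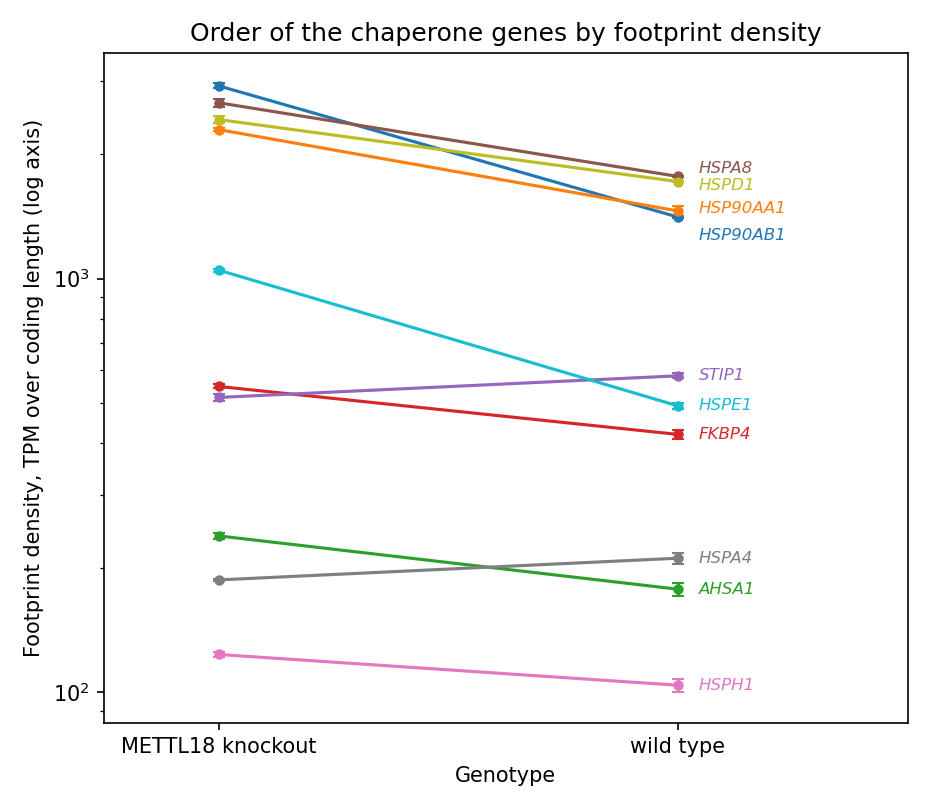
Footprint density of the 10 chaperone genes in TPM over coding length (log axis), mean and SD for METTL18 knockout (3 libraries, left) and wild type (2 libraries, right), joined by gene. HSP90AB1 moves to the top of the order in the knockout, and STIP1 and HSPA4 have lower TPM there.

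Ratios of these densities, which no scaling factor touches, are given as a description. Both HSP90 genes together stood 10.1 ± 0.277 times above STIP1 in the knockout, against 4.92 ± 0.0139 times in the wild type. Their ratio to FKBP4 was 9.502 ± 0.0515 in the knockout and 6.82 ± 0.0934 in the wild type, and that to AHSA1 was 21.8 ± 0.535 in the knockout and 16.1 ± 0.404 in the wild type. HSPA8 stood 8.57 ± 0.216 times above HSPA4 and HSPH1 together in the knockout, against 5.61 ± 0.199 times in the wild type. Each of these 4 ratios was higher in every knockout library than in both wild-type libraries. HSPE1 reached 0.433 ± 0.00995 of HSPD1's density in the knockout, against 0.287 ± 0.00555 in the wild type. HSPD1's ratio to HSPA9, the mitochondrial HSP70, was 3.37 ± 0.0268 in the knockout and 1.02 ± 0.00709 in the wild type.

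Other genes of the same machinery, taken from lists drawn up by role, moved in both directions. Of 81 tested genes outside the 10, 41 were higher, 21 were lower and 19 did not pass, with a median of 0.20. Over all genes tested 37.8% were higher and 36.6% were lower, and the count of each list is to be read against these shares. The lists overlap, as GRPEL1, GRPEL2, BAG3, TRAP1, HSPA9, HSPA1A and HSPA6 were counted in each list that held them. Of 22 other HSP90 co-chaperones, 14 were higher, 4 were lower and 4 did not pass (9 higher and 8 lower with total-count scaling), with a median of 0.35. PTGES3, the p23 protein that closes the HSP90 clamp, was among the higher at 1188 ± 63.5 CPM in the knockout and 680 ± 24.7 CPM in the wild type (log2 fold change 0.80, adjusted p = 1.55e-20, edgeR quasi-likelihood test). TSC1 (1.902), TTC4 (0.75), CHORDC1 (0.60) and SUGT1 (0.50) rose as well. FNIP1, which slows the HSP90 ATPase, fell to 26.0 ± 1.73 CPM in the knockout, against 60.7 ± 3.43 CPM in the wild type. NUDC (-0.10), CACYBP (0.09), DNAJC7 (0.05) and TOMM34 (-0.06) did not pass. Some of these nulls depend on the setting. NUDC passed as lower with upper-quartile factors (-0.14), after thinning (-0.13) and under further alternatives. CACYBP passed as higher without METTL18 knockout replicate 3 (0.11) and as lower with total-count scaling (-0.18).

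The HSP90 genes of other compartments moved in opposite directions. HSP90B1, the endoplasmic reticulum form, had 2803 ± 66.5 CPM in the knockout and 2109 ± 23.4 CPM in the wild type (log2 fold change 0.41, adjusted p = 7.44e-14). TRAP1, the mitochondrial form, had 436 ± 5.25 CPM in the knockout and 469 ± 1.98 CPM in the wild type (-0.11, adjusted p = 0.0209, both edgeR quasi-likelihood test), a call lost without either wild-type library and without a low-count filter.

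Of 9 other HSP70 genes tested, 1 was higher, 4 were lower and 4 did not pass, with a median of -0.42. With total-count scaling 1 was higher and 8 were lower. Over all genes tested 37.8% were higher and 36.6% were lower, so the count of lower genes is close to that share. HSPA9 had 1807 ± 35.1 CPM in the knockout and 3077 ± 20.01 CPM in the wild type (log2 fold change -0.77, adjusted p = 3.36e-23, edgeR quasi-likelihood test). HYOU1, the HSP110 of the endoplasmic reticulum, had 235 ± 9.43 CPM in the knockout and 518 ± 7.47 CPM in the wild type (-1.14). HSPA13 fell as well (-0.65), HSPA12A rose (0.54), and HSPA4L (-0.04) and HSPA14 (-0.01) did not pass. HSPA5, the BiP chaperone of the endoplasmic reticulum, had 2313 ± 53.2 CPM in the knockout and 2383 ± 38.5 CPM in the wild type and did not pass (-0.04, adjusted p = 0.258, edgeR quasi-likelihood test). It passed as lower with upper-quartile factors (-0.09), total-count scaling (-0.32) and a mean CPM of 10 or more (-0.10). The stress-inducible HSPA1A had 50, 51 and 35 counts in the knockout libraries, against 21 and 23 in the wild-type libraries, and did not pass either (-0.42). Its level is uncertain, since the near-identical HSPA1B has no row in the table analysed here and how reads common to both were counted was not tested.

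Of 9 cofactors of HSP70, 7 were higher, against 37.8% of all genes, and 0 were lower, against 36.6%. The other 2 did not pass, and the median of the 9 was 0.51 (5 higher and 1 lower with total-count scaling). BAG2, which releases nucleotide from HSP70, had 88.3 ± 4.09 CPM in the knockout and 25.8 ± 5.97 CPM in the wild type (log2 fold change 1.78). GRPEL1, the exchange factor of HSPA9, had 216 ± 5.05 CPM in the knockout and 93.2 ± 2.47 CPM in the wild type (1.21), so it rose where HSPA9 fell. ST13, the HIP cofactor, had 751 ± 29.1 CPM in the knockout and 513 ± 15.8 CPM in the wild type (0.55). GRPEL2 (0.76), BAG3 (0.51), SIL1 (0.35) and BAG5 (0.25, turned to -0.02 by total-count scaling) also rose, and BAG4 (0.18) and HSPBP1 (-0.03) did not pass. The call of BAG5 was lost without METTL18 knockout replicate 1 (0.21), wild type replicate 1 (0.25) or wild type replicate 2 (0.24), and that of SIL1 with total-count scaling (0.07). BAG4 passed without METTL18 knockout replicate 1 (0.19) or wild type replicate 1 (0.27).

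In mitochondria, 8 of 13 tested folding and proteolysis genes were higher, against 37.8% of all genes, and 3 were lower, against 36.6%. The other 2 did not pass, and the median of the 13 was 0.29 (5 higher and 5 lower with total-count scaling). LONP1, the matrix protease, fell most among them, to 135 ± 8.24 CPM in the knockout, against 436 ± 4.58 CPM in the wild type (log2 fold change -1.69, adjusted p = 7.18e-30, edgeR quasi-likelihood test). SPG7 (0.75), HTRA2 (0.72) and AFG3L2 (0.58), proteases of the inner membrane and intermembrane space, rose. CLPB (0.34), CLPP (0.29) and CLPX (0.16, turned to -0.11 by total-count scaling) rose too, and HSCB (0.20) and YME1L1 (0.01) did not pass. Calls were lost for CLPP (0.21) and CLPX (0.08) without wild type replicate 1, for CLPB (0.20) without wild type replicate 2, and for CLPB (0.07) and CLPP (0.02) with total-count scaling.

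Of 10 tested heat shock factors and other heat-inducible genes, 6 were higher, 2 were lower and 2 did not pass, with a median of 0.49. Over all genes tested 37.8% were higher and 36.6% were lower. HSPB1, the small heat shock protein HSP27, had 349 ± 29.7 CPM in the knockout and 99.1 ± 7.20 CPM in the wild type (log2 fold change 1.81, adjusted p = 9.47e-20, edgeR quasi-likelihood test). SERPINH1, the collagen chaperone, had 242 ± 13.5 CPM in the knockout and 106 ± 8.05 CPM in the wild type (1.19), and DNAJB1, an HSP40, had 93.8 ± 2.91 CPM in the knockout and 68.2 ± 2.39 CPM in the wild type (0.46). HSBP1, which binds HSF1, rose by 1.83 on the log2 scale, and HSF2 by 0.60. The ubiquitin gene UBB did not pass (-0.52), but did as lower without METTL18 knockout replicate 3 (-0.76). It also passed as lower with limma-voom (-0.56), without robust weights (-0.52) and with a block for the replicate number (-0.76). HSF1 itself fell to 29.5 ± 1.59 CPM in the knockout, against 43.3 ± 0.0601 CPM in the wild type (-0.56, adjusted p = 3.36e-07, edgeR quasi-likelihood test). HSPA6, a strictly heat-induced HSP70, was near the limit of counting with 7, 8 and 9 counts in the knockout libraries, against 7 and 6 in the wild-type libraries (adjusted p = 0.0499, edgeR quasi-likelihood test), a call that 4 of 5 leave-one-out fits lost.

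**Figure D5:**
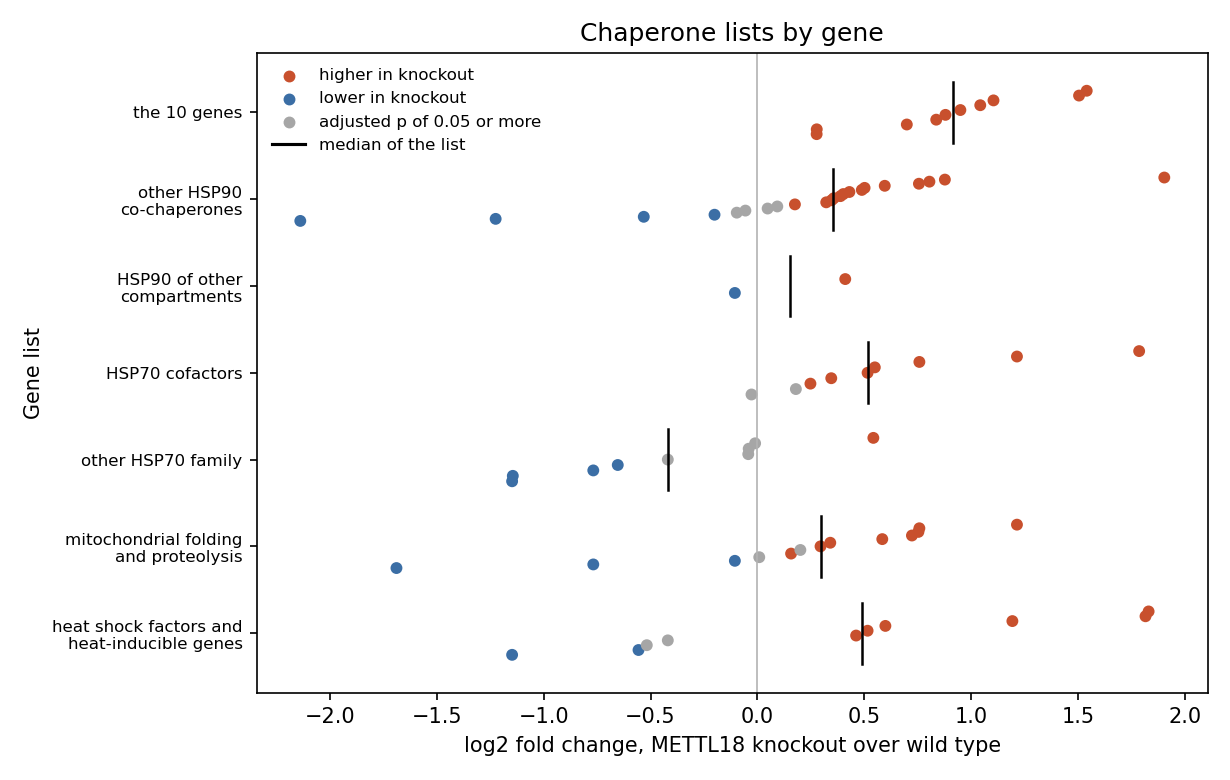
Log2 fold change of METTL18 knockout over wild type for each tested gene of the chaperone lists, 1 point per gene, coloured by call at an adjusted p of 0.05, with a line at each list's median. The 10 genes lie to the right of 0 with a median of 0.91, and the other HSP70 genes lie mostly to its left with a median of -0.42.

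Over the 5 libraries, the genes with a profile most like the mean of the 10 were C1QBP (distance 0.0383 on the centred log2 CPM scale), PA2G4 (0.0494), PDIA4 (0.0547), PARP1 (0.0557) and CAPRIN1 (0.0566), out of 2888 genes whose mean log2 CPM was 6 or more. Their own log2 fold changes ran between 0.87 and 0.94, which follows from the choice by profile and is no separate result.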

How the data were processed

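Ribosome footprints of 28 to 32 bases were sequenced from cycloheximide lysates digested with RNase I, per the labels' protocols, with 4 randomized bases in the adapters. A table of 14084 transcripts with gene symbols holds the raw counts that the authors deposited. Per the submitters' processing notes, Bowtie and hg38 were used. The sources used here give no annotation, counting tool, rule for reads with several matches or removal of duplicates, so intervals cover counting error only. The labels' molecule, polyA RNA, is not what that protocol isolates.

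Groups came from the genotype label. The edgeR package (version 4.0.16, R 4.3.3) tested these counts (TMM factors of 0.927, 0.923 and 0.932 in the knockout and 1.12 and 1.12 in the wild type, filterByExpr at count 10 and total 15, robust quasi-likelihood fit) on genotype alone, Benjamini-Hochberg adjustment over 11335 genes and a threshold of 0.05. SEs come from the log2 fold change and its F statistic. CPM and TPM were computed here from the deposited counts. GENCODE 29 gave coordinates and coding lengths for 13960 transcripts (99.1%), and RefSeq (GRCh38.p14) the start-site windows. Alternatives were RLE, upper-quartile and total-count scaling, DESeq2 1.42.0, limma-voom (limma 3.58.1), no low-count filter, genes with a mean CPM of 10 or more, a fold above 1.5 (glmTreat), a fit without robust weights, a block for the replicate number, knockout libraries thinned to wild-type depth, and leaving out each library.

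The wild-type libraries had a chi-square of 1.14 per degree of freedom (p = 8.02e-22), knockout pairs 2.73 to 3.48, and all were counted as separate. The rule for names took all 10 chaperone genes, METTL18 and the 5 nearest profiles, allowed any measured gene of lists of up to 15, and from longer lists allowed up to 6 genes of smallest adjusted p and those not passed. HIF1A, INSR, PLK1 and STUB1 were named outside this rule, since total-count scaling turned their sign. The 10 genes and the lists were chosen with earlier results of these data known, and 1 gene was left out of the lists and is not reported here.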

Additional observations from a re-analysis of the deposited data

How the results depend on the processing

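The 10 chaperone genes had a median log2 fold change of 0.91. It became 0.871 with upper-quartile factors, 0.642 with total-count scaling, 0.939 without a low-count filter, 0.855 at a mean CPM of 10 or more, 0.882 after thinning and 0.894 to 0.927 with each library left out. With the replicate number as a block it was 0.923, with 10 genes higher. Deviations of same-numbered libraries from their group means, in log2 CPM, correlated at 0.0418 and 0.0404 over 7983 genes. There were only 2 such pairs, and the deviations of 2 wild-type libraries mirror each other, so the values are not independent. The numbers were taken as names. Total-count scaling gave as higher 4 of the HSP90 clients, 5 of the mitochondrial list and 9 of the co-chaperones, and as lower 1 of the HSP70 cofactors, 5 of the mitochondrial list, 8 of the other HSP70 genes and 8 of the co-chaperones. It turned the sign of BAG5 (-0.0242), CACYBP (-0.179), CLPX (-0.115), DNAJC7 (-0.225), HIF1A (-0.0453), INSR (-0.0613), PLK1 (-0.0508), STUB1 (-0.0969) and YME1L1 (-0.264). The heat-inducible list had 1 gene lower with DESeq2, without a filter, at a mean CPM of 10 or more and after thinning, and 1 to 3 with each library left out. The HSP90 genes of other compartments had 0 lower without a filter and 0 to 1 with each library left out. With a fold above 1.5 required, 2011 genes of the table were higher and 2129 lower. Of the lists, 3 heat-inducible genes were then higher and 0 lower, 3 HSP70 cofactors were higher, 3 clients were higher and 4 lower, 0 HSP90 genes of other compartments were higher and 0 lower, 2 mitochondrial genes were higher, 0 other HSP70 genes were higher and 2 lower, and 4 co-chaperones were higher and 2 lower. Of the values for groups of genes and shares, 290 stayed within their limits and 38 moved. The causes were not tested. Low counts limit HSPA6 and HSPA1A, and 2 wild-type libraries limit every comparison.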

Other observations

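Footprints on genes for HSP90 clients, proteins that depend on HSP90, moved in both directions. Of 23 tested, 7 were higher in the knockout, 10 were lower and 6 did not pass, with a median log2 fold change of -0.18 (4 higher and 14 lower with total-count scaling). Over all genes tested 37.8% were higher and 36.6% were lower, so these counts do not set the clients apart. WEE1, a kinase that holds back mitosis, had 144 ± 4.77 CPM in the knockout and 78.0 ± 1.63 CPM in the wild type (log2 fold change 0.88), and FANCA, of the Fanconi DNA repair pathway, also rose (0.88). The receptor kinase MET fell to 48.1 ± 1.52 CPM in the knockout, against 117 ± 7.26 CPM in the wild type (-1.29). NR3C1, the glucocorticoid receptor that FKBP4 and HSP90 mature, fell to 2.15 ± 0.368 CPM in the knockout, against 9.63 ± 0.427 CPM in the wild type (-2.15). CHEK1, a checkpoint kinase, fell by 0.64 on the log2 scale. EGFR had 0 counts in all 3 knockout libraries, against 107 and 82 counts in the wild-type libraries. Set against a floor of 3 counts over the knockout group, it was at least 259.6-fold lower. BRAF, CDK4, LIMK1, BCR, CDK6 and IGF1R did not pass. Under some alternatives CDK4 passed as lower, such as upper-quartile factors (-0.14) and thinning (-0.15), and so did BRAF at a mean CPM of 10 or more (-0.24).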
